A study of Arabidopsis thaliana with 10 samples.

Results

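Expression of 10 genes of flavonoid and anthocyanin synthesis, chosen by locus from the 33602 genes of the deposited table, was followed in Arabidopsis thaliana leaves of 5 genotypes. They are CHS (AT5G13930), CHI (AT3G55120), F3H (AT3G51240), F3'H (AT5G07990), FLS1 (AT5G08640), DFR (AT5G42800), LDOX (AT4G22880), UF3GT (AT5G54060), TT19 (AT5G17220) and PAP1 (AT1G56650). The labels describe soil-grown, untreated plants, with RNA taken from leaves at 4 weeks and sequenced as strand-specific mRNA libraries. The genotypes were 35S:NTL6-SRDX in pnet2_ab, 35S:NTL9-SRDX in pnet2_ab, 35S:NTL12-SRDX in pnet2_ab, the pnet2_ab mutant without a transgene, and wild type Col-0. All 3 transgenic lines thus carry the pnet2_ab mutations as well. PNET2 proteins are membrane proteins of the plant nuclear envelope, and NTL proteins are NAC transcription factors anchored in membranes. SRDX is a short domain that turns a transcription factor into a repressor, and 35S is a viral promoter active in most plant tissues. The labels do not say which pnet2 alleles are meant or how many independent transformants stand behind each line. Levels of the mutated genes and of the transgenes were not analysed here, so each line is known by its label.

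Flavonoids are made from phenylalanine through p-coumaroyl-CoA. CHS joins this to malonyl-CoA to give a chalcone, CHI closes the ring, and F3H and F3'H add hydroxyl groups. FLS1 turns the resulting dihydroflavonols into flavonols, the colourless sunscreens of leaves, whereas DFR sends the same substrates towards anthocyanins, the red and purple pigments. LDOX makes the coloured anthocyanidin, UF3GT adds a xylose to the anthocyanin sugar, and TT19 is a glutathione transferase-type protein needed to bring anthocyanins to the vacuole. In Arabidopsis the early genes CHS, CHI, F3H and FLS1 respond to MYB11, MYB12 and MYB111. The late genes DFR, LDOX, UF3GT and TT19 respond to a complex of a MYB such as PAP1, a bHLH such as TT8, GL3 or EGL3, and the WD40 protein TTG1.

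Each genotype had 2 libraries, 10 in all, where the series text has triplicates. Library totals ran between 22.6 and 28.3 M counts. Log2 expression correlated at 0.979 to 0.982 between replicates and at 0.935 to 0.976 between genotypes, and no library stood apart from its group. The second library labelled NTL12-SRDX by its title has NTL2 in its genotype field and was kept in the NTL12-SRDX group. The labels do not say whether the replicates of a genotype were separate plants or pools, so each p-value rests on the spread between libraries alone, which may be technical. Levels are CPM, counts divided by library size after TMM scaling, and levels of different genes are compared only in FPKM, which accounts for length. A gene was called changed when its edgeR quasi-likelihood F-test gave a Benjamini-Hochberg adjusted p under 0.05 over the 20334 genes that passed the filter on low counts. Of the 10 genes, 9 passed it and F3H did not. Each fold change below is log2, from 2 libraries per group, and the name of the line stands for the line in pnet2_ab. The standard error given with it is the size of the fold change divided by the square root of F. The spread in F was estimated over all 10 libraries.

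CHS (chromosome 5, 4488688 to 4490264, plus strand), the entry enzyme, was highest in the NTL9 and NTL6 lines. It had 56.5 and 61.2 CPM in NTL6-SRDX, 64.6 and 61.7 CPM in NTL9-SRDX, 26.6 and 27.1 CPM in NTL12-SRDX, 37.2 and 42.9 CPM in pnet2_ab alone, and 29.0 and 27.1 CPM in wild type. The pnet2_ab libraries lay between the NTL6 and NTL9 libraries above and the NTL12 and wild-type libraries below, and of neighbouring groups only NTL9 with NTL6 and wild type with NTL12 did not differ past the threshold (adjusted p = 0.67 and 0.69). CHI (chromosome 3, 20430114 to 20431470, minus strand) had 13.6 and 14.7 CPM in NTL6-SRDX, 13.1 and 10.9 CPM in NTL9-SRDX, 10.7 and 10.9 CPM in NTL12-SRDX, 19.9 and 12.5 CPM in pnet2_ab alone, and 10.7 and 11.7 CPM in wild type. One pnet2_ab library stood above every other and the second lay within the NTL9 range, so the pnet2_ab pair spanned the NTL6 libraries; no neighbouring groups differed past the threshold (adjusted p of 0.51 to 0.86). F3'H (chromosome 5, 2560394 to 2563109, plus strand) was low, with 22 to 90 counts a library. Its level was 2.1 and 3.45 CPM in NTL6-SRDX, 2.29 and 1.93 CPM in NTL9-SRDX, 1.48 and 2.25 CPM in NTL12-SRDX, 1.57 and 2.44 CPM in pnet2_ab alone, and 2.50 and 0.981 CPM in wild type. The wild-type libraries spanned those of the NTL9, NTL12 and pnet2_ab groups, and F3'H was called in none of the 10 comparisons (lowest adjusted p = 0.32). 

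**Figure D1:**
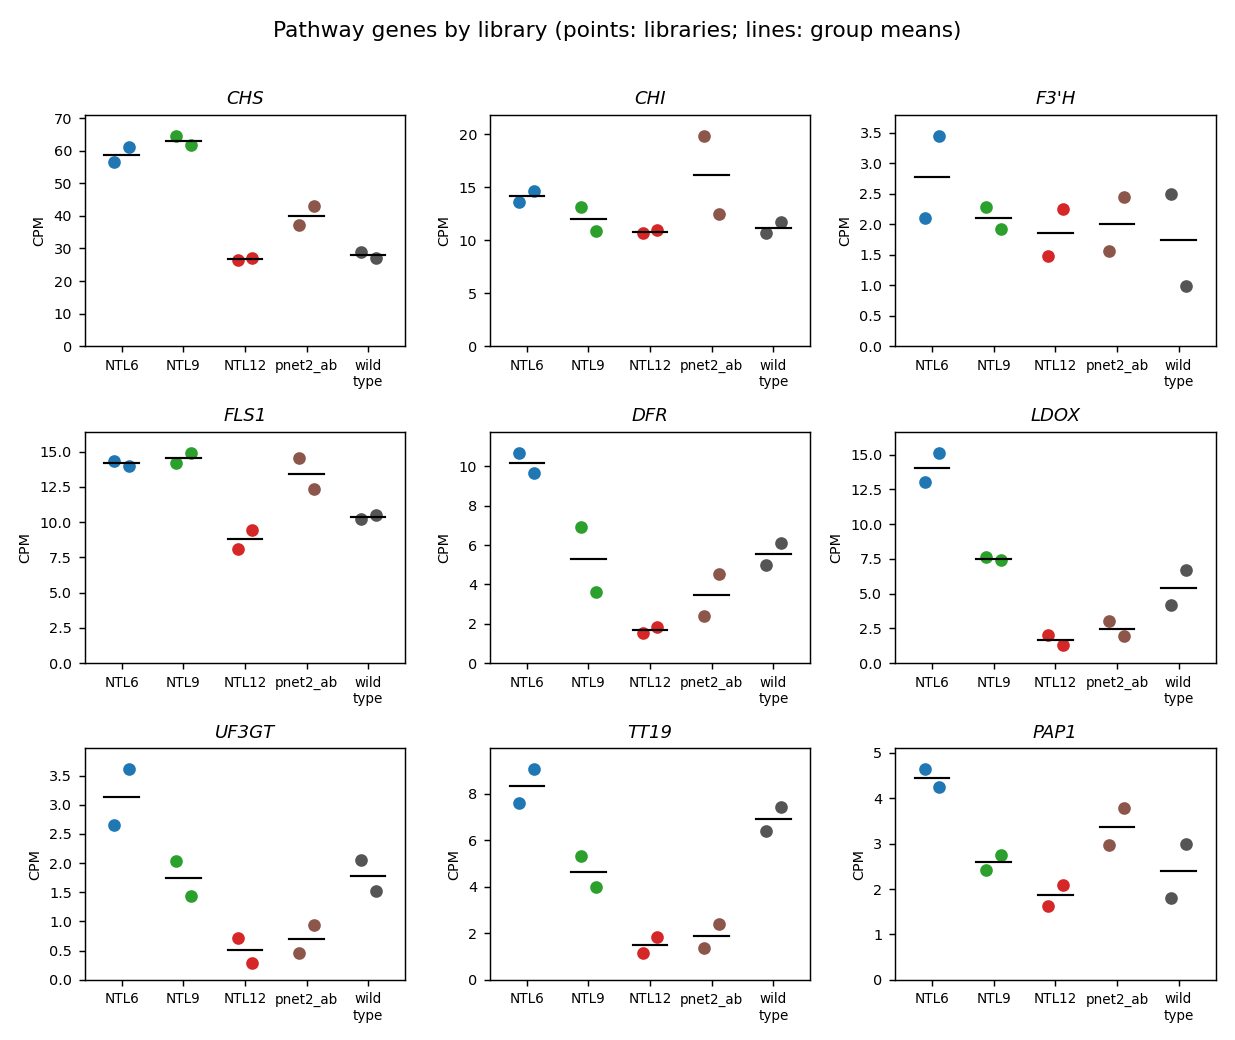
Levels of the 9 tested pathway genes in CPM with TMM scaling (y axis from 0, one panel per gene) in the NTL6-SRDX, NTL9-SRDX and NTL12-SRDX lines in pnet2_ab, in pnet2_ab and in wild type. Each point is a library and each line the mean of 2; CHS is highest at 61.7 and 64.6 CPM in NTL9-SRDX, whereas DFR, LDOX, UF3GT and TT19 have both NTL6 libraries above all others.

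F3H (chromosome 3, 19025192 to 19026872, plus strand), the hydroxylase between CHI and the branch to flavonols or anthocyanins, was at 0 counts and 0 FPKM in all 10 libraries. At 95% confidence a count of 0 leaves room for 3 counts, which equal 0.0978 to 0.150 CPM depending on the library; this covers counting error only. In the authors' table an antisense transcript gene, AT3G51238 (chromosome 3, 19025110 to 19026779, minus strand), covers 1588 bases or 94.5% of F3H, and it too was at 0 counts throughout. Among protein-coding genes of the table that overlap no gene on their own strand, 105 of 188 genes covered over at least 90% of their length by opposite-strand genes were at 0 in all libraries (55.9%). The share was 16.4% of 23592 genes with no opposite-strand overlap and 3.42% of 2981 genes covered over under 50% of their length. It was 13.2% of 167 genes covered over 50% to under 90%, so only the class at 90% or more lay above the genes without overlap. The labels call the libraries strand-specific, but the strand setting of the counting is not given in the sources used here, and its part in the zero counts was not tested. No level of F3H is therefore given for any genotype. CHS shares only its last 2 bases with AT5G13940, and no other gene of the 10 overlaps a neighbour.

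**Figure D2:**
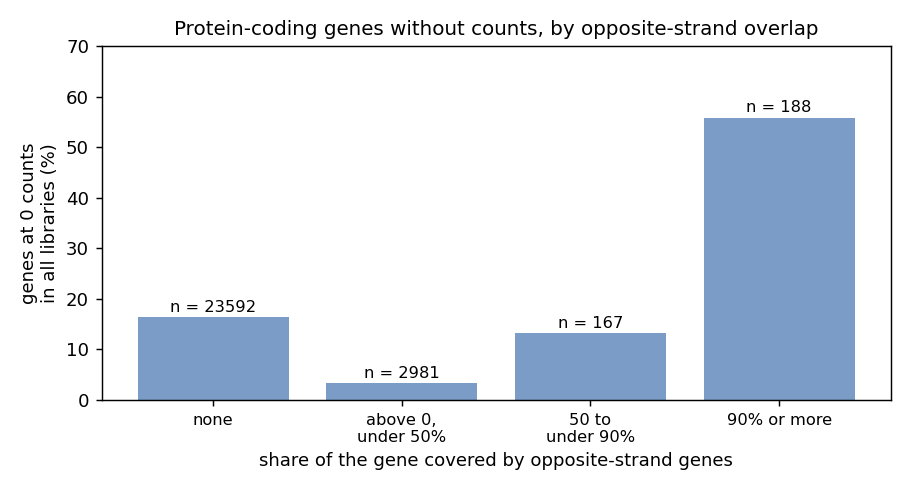
Share of protein-coding genes with 0 counts in all 10 libraries (y axis, percent) by the share of their length that opposite-strand genes cover in the authors' table (x axis), with the number of genes above each bar. The bar at 90% or more, the class of F3H, reaches 55.9%, against 16.4% without overlap.

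FLS1 (chromosome 5, 2803957 to 2805606, plus strand), which diverts dihydroflavonols to flavonols, had 14.4 and 14 CPM in NTL6-SRDX, 14.2 and 14.9 CPM in NTL9-SRDX, 8.11 and 9.42 CPM in NTL12-SRDX, 14.5 and 12.3 CPM in pnet2_ab alone, and 10.2 and 10.5 CPM in wild type. The NTL12 libraries were the lowest, wild type came next, and the other 3 groups overlapped at 12.3 to 14.9 CPM. No pair of neighbours in this order differed past the threshold, the smallest adjusted p being 0.072 for pnet2_ab against wild type.

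The late genes shared another order, with the NTL6 line highest and the NTL12 line lowest. DFR (chromosome 5, 17164141 to 17165918, minus strand), the first anthocyanin step, had 10.7 and 9.66 CPM in NTL6-SRDX, 6.92 and 3.62 CPM in NTL9-SRDX, 1.52 and 1.84 CPM in NTL12-SRDX, 2.41 and 4.52 CPM in pnet2_ab alone, and 5.0 and 6.11 CPM in wild type. The NTL9 libraries were far apart and overlapped both pnet2_ab and wild type, and among neighbouring groups only NTL6 and wild type differed past the threshold (adjusted p = 0.037). LDOX (chromosome 4, 12004768 to 12006209, minus strand) had 13.0 and 15.1 CPM in NTL6-SRDX, 7.64 and 7.40 CPM in NTL9-SRDX, 2.05 and 1.27 CPM in NTL12-SRDX, 3.03 and 1.92 CPM in pnet2_ab alone, and 4.15 and 6.69 CPM in wild type. Only the NTL12 and pnet2_ab libraries of LDOX overlapped, and neighbours differed past the threshold at NTL6 over NTL9 (adjusted p = 0.034) and wild type over pnet2_ab (0.0036). UF3GT (chromosome 5, 21936879 to 21938369, minus strand) rested on 7 to 94 counts a library. It had 2.66 and 3.60 CPM in NTL6-SRDX, 2.04 and 1.44 CPM in NTL9-SRDX, 0.720 and 0.287 CPM in NTL12-SRDX, 0.457 and 0.937 CPM in pnet2_ab alone, and 2.05 and 1.52 CPM in wild type. Its NTL9 and wild-type libraries overlapped, as did its NTL12 and pnet2_ab libraries, and no neighbours differed past the threshold (adjusted p of 0.088 to 0.98). TT19 (chromosome 5, 5658460 to 5659386, plus strand) had 7.61 and 9.05 CPM in NTL6-SRDX, 5.31 and 3.99 CPM in NTL9-SRDX, 1.14 and 1.84 CPM in NTL12-SRDX, 1.37 and 2.40 CPM in pnet2_ab alone, and 6.40 and 7.44 CPM in wild type. NTL6 and wild-type libraries lay at the top without overlap but did not differ past the threshold (adjusted p = 0.55), and the NTL9 libraries lay between them and the other 2 groups, above pnet2_ab past the threshold (0.0033).

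PAP1 (chromosome 1, 21233595 to 21235137, minus strand), the MYB activator of the late genes, had 4.64 and 4.26 CPM in NTL6-SRDX, 2.42 and 2.75 CPM in NTL9-SRDX, 1.63 and 2.09 CPM in NTL12-SRDX, 2.97 and 3.79 CPM in pnet2_ab alone, and 1.80 and 2.99 CPM in wild type. The NTL6 libraries were above all others, and wild type overlapped the NTL9, NTL12 and pnet2_ab groups. No neighbours in this order differed past the threshold (adjusted p of 0.45 to 0.89). Its close relatives PAP2, MYB113 and MYB114 were at 0 to 0.307 CPM in every library.

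In FPKM, CHS was the most abundant of the 9 genes in each group, at 38.4 ± 2.16 in NTL6-SRDX, 41.1 ± 1.26 in NTL9-SRDX, 17.5 ± 0.213 in NTL12-SRDX, 26.3 ± 2.59 in pnet2_ab and 18.4 ± 0.852 in wild type (mean ± SD, n = 2). At the lower end, wild type had 1.17 ± 0.247 FPKM of UF3GT and 0.926 ± 0.572 FPKM of F3'H. The FPKM of the 4 late genes, summed, was 0.787 and 0.810 of that of CHS in NTL6-SRDX, 0.447 and 0.354 in NTL9-SRDX, 0.263 and 0.272 in NTL12-SRDX, 0.251 and 0.298 in pnet2_ab, and 0.853 and 1.12 in wild type. The NTL6 line and wild type were thus at the top of this ratio, and NTL12 and pnet2_ab overlapped at the bottom. The ratio of DFR to FLS1, the enzymes that share dihydroflavonols, was 0.821 and 0.760 in NTL6-SRDX, 0.535 and 0.267 in NTL9-SRDX, 0.206 and 0.215 in NTL12-SRDX, 0.183 and 0.404 in pnet2_ab, and 0.539 and 0.639 in wild type. Its highest values were those of the NTL6 line. These ratios are descriptions without a test.

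**Figure D3:**
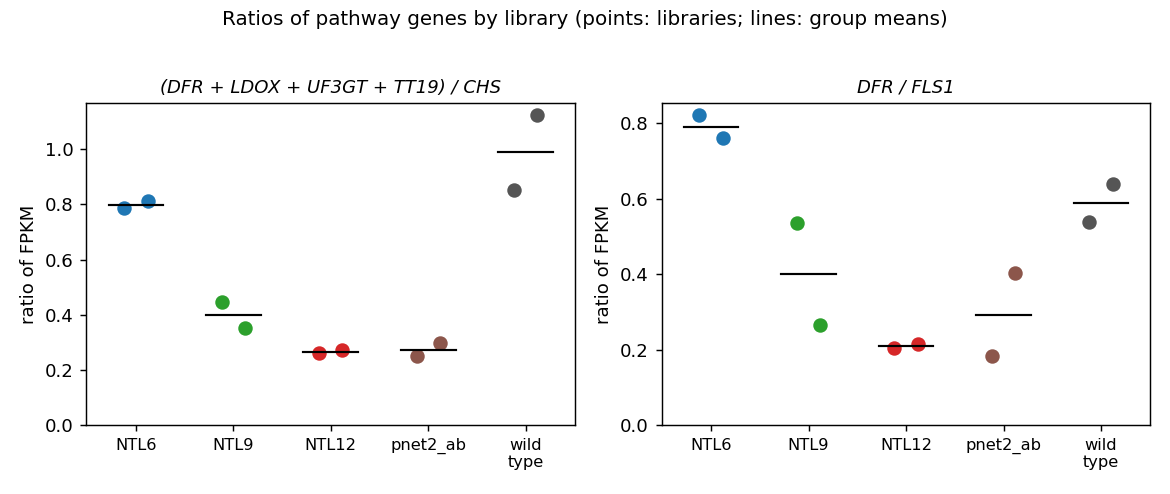
Ratios of authors' FPKM values by library: DFR, LDOX, UF3GT and TT19 summed over CHS (left) and DFR over FLS1 (right), in the 3 lines in pnet2_ab, in pnet2_ab and in wild type; lines are means of 2 libraries. The left ratio is 0.787 and 0.810 in NTL6-SRDX and 0.853 and 1.12 in wild type, against 0.251 to 0.298 in NTL12-SRDX and pnet2_ab.

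NTL proteins belong to the NAC family, whose binding sites hold the core CACG, and the bHLH partners of PAP1 bind E-boxes such as the G-box CACGTG. The 250 bases before the RefSeq gene start (TAIR10.1) of CHS and of the 4 late genes are therefore shown, 5′ to 3′ on the gene's strand, with each CACG or its reverse complement CGTG in capitals; the 2 cores overlap where they form a G-box. The gene starts in the authors' table lie 212 bases downstream of these starts for CHS, 114 for DFR, 44 for TT19, 27 for UF3GT and 0 for LDOX, so that for CHS and DFR the windows lie well upstream of the transcript the authors counted.
CHS, chr5:4488226-4488475, plus strand: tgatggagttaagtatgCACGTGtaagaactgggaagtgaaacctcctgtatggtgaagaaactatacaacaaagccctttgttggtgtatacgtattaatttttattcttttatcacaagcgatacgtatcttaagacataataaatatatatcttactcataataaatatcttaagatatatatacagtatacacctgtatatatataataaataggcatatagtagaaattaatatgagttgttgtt
DFR, chr5:17166033-17166282, minus strand: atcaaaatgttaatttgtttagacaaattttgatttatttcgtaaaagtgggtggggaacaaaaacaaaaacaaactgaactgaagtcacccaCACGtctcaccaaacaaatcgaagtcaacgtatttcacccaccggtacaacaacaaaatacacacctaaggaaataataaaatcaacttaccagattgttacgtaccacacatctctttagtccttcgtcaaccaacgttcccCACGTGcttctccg
LDOX, chr4:12006210-12006459, minus strand: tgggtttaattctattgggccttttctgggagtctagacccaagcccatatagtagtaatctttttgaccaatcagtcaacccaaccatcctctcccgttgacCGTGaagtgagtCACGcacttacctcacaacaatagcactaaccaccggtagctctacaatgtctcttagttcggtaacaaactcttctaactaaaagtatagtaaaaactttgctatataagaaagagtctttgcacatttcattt
UF3GT, chr5:21938397-21938646, minus strand: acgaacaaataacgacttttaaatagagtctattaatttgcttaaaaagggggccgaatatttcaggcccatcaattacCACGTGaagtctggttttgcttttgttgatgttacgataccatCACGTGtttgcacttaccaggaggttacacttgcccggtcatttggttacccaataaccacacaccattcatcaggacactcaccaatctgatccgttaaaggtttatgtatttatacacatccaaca
TT19, chr5:5658166-5658415, plus strand: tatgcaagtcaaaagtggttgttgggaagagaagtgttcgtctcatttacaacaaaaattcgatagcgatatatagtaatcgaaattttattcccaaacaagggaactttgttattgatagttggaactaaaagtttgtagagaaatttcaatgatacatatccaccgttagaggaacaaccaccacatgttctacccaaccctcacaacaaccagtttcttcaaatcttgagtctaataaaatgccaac
UF3GT held 2 G-boxes, CHS and DFR 1 each, and LDOX and TT19 none. A G-box stood in 6.49% and a CACG or CGTG core in 45.6% of 27437 protein-coding promoters of this length, searched on both strands. LDOX held 2 cores outside a G-box and DFR held 1 besides its G-box, whereas TT19 held none. The wider E-box CANNTG, which includes the G-box, was in 55.3% of promoters and matched in CHS, DFR, UF3GT and TT19 but not in LDOX. The MYB-bound AC elements ACCTACC or ACCAACC or ACCTAAC, in 6.12% of promoters, matched in none of the 5 windows. These letters are matches in a short window and describe the sequence only.

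In pnet2_ab, CHS and CHI were higher and LDOX and TT19 lower than in wild type. That is 2 of 9 tested genes higher and 2 lower, beside 17.2% of all tested genes higher and 16.8% lower, so the counts are near the background. The genes' median log2 fold change was 0.21; the median of all tested genes lay between -0.011 and 0.035 in the 10 comparisons. CHS rose by 0.51 ± 0.10 (adjusted p = 0.00037, edgeR) and TT19 fell by 1.89 ± 0.31 (adjusted p = 4.7e-05), which is 3.71-fold lower; both were called under all 15 alternatives. LDOX fell by 1.12 ± 0.28 (adjusted p = 0.0036), a call lost without pnet2_ab library 2 (-0.84, adjusted p = 0.051) or wild-type library 2 (-0.74, adjusted p = 0.1). CHI rose by 0.53 ± 0.19 (adjusted p = 0.031), lost without pnet2_ab library 1 (0.15, adjusted p = 0.63), wild-type library 1 (0.46, adjusted p = 0.16) or wild-type library 2 (0.59, adjusted p = 0.073), and standing at 0.82 without pnet2_ab library 2 (adjusted p = 0.0011). UF3GT at -1.37 (adjusted p = 0.06) passed the threshold under DESeq2 (adjusted p = 0.042), without the filter (0.035), without pnet2_ab library 2 (-1.95, 0.04) and without NTL12 library 2 (0.048). DFR at -0.69 (adjusted p = 0.093) passed without the filter (0.034) and without pnet2_ab library 2 (-1.20, 0.014). FLS1 stood at 0.38 (adjusted p = 0.072), PAP1 at 0.49 (0.3) and F3'H at 0.21 (0.78).

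Against pnet2_ab, the NTL6 line had CHS and all 4 late genes higher and no tested gene lower, beside 8.75% of all tested genes higher and 9.35% lower (median of the 9 genes 0.55). LDOX rose by 2.49 ± 0.27 (adjusted p = 1e-06, edgeR), or 5.63-fold, TT19 by 2.16 ± 0.31 (adjusted p = 2.6e-05), DFR by 1.57 ± 0.30 (adjusted p = 0.00081) and CHS by 0.55 ± 0.10 (adjusted p = 0.00027). All 4 were called under the 15 alternatives. UF3GT rose by 2.18 ± 0.54 (adjusted p = 0.0061), lost without pnet2_ab library 1 (1.74, adjusted p = 0.075) or NTL6 library 2 (1.94, adjusted p = 0.071). CHI, F3'H, FLS1 and PAP1 stood at -0.20, 0.48, 0.08 and 0.40 with adjusted p of 0.45 to 0.79. This comparison and the next 2 share the pnet2_ab libraries with the comparison of pnet2_ab and wild type, so a high or low pnet2_ab library moves them in opposite directions.

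Against pnet2_ab, the NTL9 line had CHS, LDOX and TT19 higher and none lower, beside 11.6% of all tested genes higher and 10.8% lower (median of the 9 genes 0.61). CHS rose by 0.66 ± 0.10 (adjusted p = 2.8e-05, edgeR) and LDOX by 1.59 ± 0.28 (adjusted p = 0.00018). TT19 rose by 1.31 ± 0.31 (adjusted p = 0.0033), lost without pnet2_ab library 1 (0.95, adjusted p = 0.067). DFR at 0.61 (adjusted p = 0.18) passed without NTL9 library 2 (1.01, 0.035) or pnet2_ab library 2 (1.12, 0.031), and CHI at -0.44 (adjusted p = 0.099) passed without pnet2_ab library 2 (-0.73, 0.0053). UF3GT stood at 1.33 (adjusted p = 0.088), FLS1 at 0.12 (0.66), F3'H at 0.08 (0.93) and PAP1 at -0.38 (0.48).

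Against pnet2_ab, the NTL12 line had CHS and FLS1 lower and none higher, beside 3.11% of all tested genes higher and 3.84% lower (median of the 9 genes -0.58). CHS fell by 0.58 ± 0.10 (adjusted p = 8e-04, edgeR), or 1.49-fold, under all 15 alternatives. FLS1 fell by 0.62 ± 0.16 (adjusted p = 0.019), lost without pnet2_ab library 1 (-0.49, adjusted p = 0.18) or NTL12 library 1 (-0.51, adjusted p = 0.19). DFR at -1.03 (adjusted p = 0.073) passed without the filter (0.0075), without pnet2_ab library 1 (-1.43, 0.016) and without NTL9 library 1 (0.041) or 2 (0.037). CHI at -0.59 (adjusted p = 0.059) passed without the filter (0.011) and without pnet2_ab library 2 (-0.88, 0.0037). LDOX, UF3GT, TT19, PAP1 and F3'H stood at -0.58, -0.43, -0.33, -0.86 and -0.10, with adjusted p of 0.31, 0.76, 0.66, 0.15 and 0.94.

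**Figure D4:**
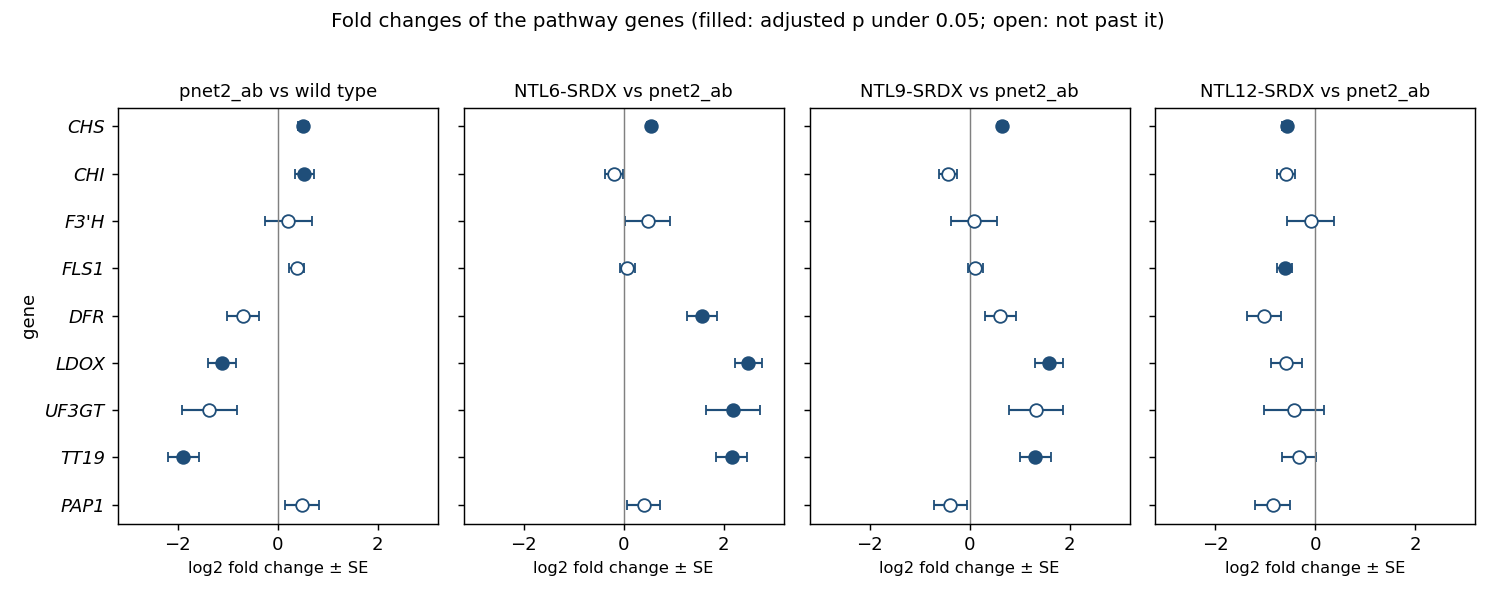
Log2 fold change (x axis, bars show the standard error) of the 9 tested pathway genes (y axis) in 4 comparisons of 2 against 2 libraries; filled points have an adjusted p under 0.05. LDOX and TT19 lie at -1.12 and -1.89 in pnet2_ab against wild type and at 2.49 and 2.16 in NTL6-SRDX against pnet2_ab, while CHS lies above 0 in the first 3 panels and at -0.58 in the last.

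Set against wild type, the NTL6 line had CHS, FLS1, DFR and LDOX higher and none lower, beside 10.9% of all tested genes higher and 12.6% lower (median of the 9 genes 0.81). CHS rose by 1.07 ± 0.10 (adjusted p = 8.8e-08, edgeR) and LDOX by 1.37 ± 0.26 (adjusted p = 0.00045). DFR rose by 0.87 ± 0.30 (adjusted p = 0.037), but this call was lost without NTL6 library 1 (0.80, adjusted p = 0.17), NTL6 library 2 (0.94, 0.083), wild-type library 1 (0.72, 0.21) or wild-type library 2 (1.01, 0.077). FLS1 rose by 0.45 ± 0.16 (adjusted p = 0.042), a call that held in 5 of 15 alternatives (0.42 to 0.47, adjusted p up to 0.17); it was lost with DESeq2, no filter, the 2 groups alone or a replicate block, and without either library of the NTL6, NTL9 or wild-type groups. PAP1 at 0.89 (adjusted p = 0.064) passed without wild-type library 2 (1.29, 0.042). TT19 stood at 0.27 (adjusted p = 0.55), UF3GT at 0.81 (0.27), CHI at 0.33 (0.22) and F3'H at 0.68 (0.32).

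The NTL9 line had CHS and FLS1 higher than wild type and none lower, beside 6.29% of all tested genes higher and 7.43% lower (median of the 9 genes 0.11). CHS rose by 1.17 ± 0.10 (adjusted p = 4.6e-08, edgeR), or 2.25-fold. FLS1 rose by 0.49 ± 0.16 (adjusted p = 0.042), a call that held in 6 of 15 alternatives (0.45 to 0.52, adjusted p up to 0.18); it was lost with DESeq2, the 2 groups alone or a replicate block, and without either library of the NTL9, NTL6 or wild-type groups. The late genes did not pass the threshold: DFR stood at -0.08 (adjusted p = 0.91), LDOX at 0.47 (0.28), UF3GT at -0.03 (0.98) and TT19 at -0.58 (0.21). CHI, F3'H and PAP1 stood at 0.10, 0.29 and 0.11, with adjusted p of 0.81, 0.76 and 0.89.

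In the NTL12 line all 4 late genes were lower than in wild type and none of the 9 was higher, beside 14.9% of all tested genes higher and 15.6% lower (median of the 9 genes -0.37). TT19 fell by 2.22 ± 0.32 (adjusted p = 1.2e-05, edgeR), or 4.65-fold, DFR by 1.73 ± 0.34 (adjusted p = 4e-04) and LDOX by 1.70 ± 0.30 (adjusted p = 0.00013), all 3 under every one of the 15 alternatives. UF3GT fell by 1.80 ± 0.57 (adjusted p = 0.02), lost without NTL12 library 2 (-1.30, adjusted p = 0.17) or wild-type library 1 (-1.58, 0.095), and it stood at -2.61 without NTL12 library 1 (0.017). CHS, CHI, F3'H, FLS1 and PAP1 stood at -0.06, -0.06, 0.11, -0.24 and -0.37, with adjusted p of 0.69, 0.86, 0.9, 0.29 and 0.47.

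Between the lines, the NTL6 line had only LDOX higher than the NTL9 line and none lower, beside 1.95% of all tested genes higher and 4.1% lower (median of the 9 genes 0.78). LDOX rose by 0.90 ± 0.25 (adjusted p = 0.034, edgeR) but lost the call without NTL6 library 1 (1.01, adjusted p = 0.1), NTL6 library 2 (0.79, 0.24), NTL9 library 1 (0.91, 0.12) or NTL9 library 2 (0.87, 0.21). DFR at 0.95 (adjusted p = 0.063) passed without the filter (0.0043), with the 2 groups alone (0.029), without NTL9 library 1 (1.48, 0.011) and without pnet2_ab library 1 (0.025) or 2 (0.027). TT19 at 0.84 (adjusted p = 0.091) passed without the filter (0.029) and with the 2 groups alone (0.033). CHS stood at -0.10 (adjusted p = 0.67), UF3GT at 0.85 (0.42) and PAP1 at 0.78 (0.21).

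The NTL6 and NTL12 lines differed in 7 of the 9 genes, all higher in NTL6, beside 8.99% of all tested genes higher and 8.45% lower (median of the 9 genes 1.26). LDOX was higher by 3.07 ± 0.29 (adjusted p = 1.2e-07, edgeR), or 8.43-fold, DFR by 2.60 ± 0.33 (adjusted p = 7e-06), TT19 by 2.48 ± 0.32 (adjusted p = 7.2e-06) and CHS by 1.13 ± 0.10 (adjusted p = 4.1e-08). UF3GT was higher by 2.61 ± 0.56 (adjusted p = 0.002), and by 3.43 without NTL12 library 1. FLS1 was higher by 0.69 ± 0.16 (adjusted p = 0.0034), lost without NTL12 library 1 (0.59, adjusted p = 0.059). PAP1 was called in this comparison alone of the 10, at 1.26 ± 0.34 (adjusted p = 0.013), and lost the call without NTL12 library 1 (1.09, 0.12) or NTL6 library 1 (1.19, 0.077). The NTL9 line exceeded the NTL12 line in 6 of the 9 genes with none lower, beside 9.22% of all tested genes higher and 7.07% lower (median of the 9 genes 1.23). CHS was higher by 1.23 ± 0.10 (adjusted p = 1.8e-08), LDOX by 2.17 ± 0.29 (1.8e-05), DFR by 1.65 ± 0.33 (0.0014), TT19 by 1.64 ± 0.32 (0.00097) and FLS1 by 0.73 ± 0.16 (0.0024). UF3GT was higher by 1.76 ± 0.57 (adjusted p = 0.036), lost without NTL12 library 2 (1.26, 0.26), NTL9 library 1 (1.5, 0.19), NTL9 library 2 (2.0, 0.052) or NTL6 library 2 (1.77, 0.055) and with the 2 groups alone (0.05), and at 2.58 without NTL12 library 1 (0.036).

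The counts of other pathway genes given next stand beside the same background in each comparison: 17.2% of all tested genes higher and 16.8% lower in pnet2_ab against wild type, and, against pnet2_ab, 8.75% and 9.35% in NTL6-SRDX, 11.6% and 10.8% in NTL9-SRDX, and 3.11% and 3.84% in NTL12-SRDX. The 8 phenylpropanoid entry genes, which supply p-coumaroyl-CoA, all passed the filter. In pnet2_ab against wild type 1 rose and 1 fell (median -0.15): C4H, which hydroxylates cinnamate, rose by 0.28 ± 0.08 (edgeR adjusted p = 0.0079), lost without wild-type library 2 (0.24, 0.08). PAL3, a phenylalanine ammonia lyase gene, fell by 0.52 ± 0.15 (adjusted p = 0.0075), lost without pnet2_ab library 2 (-0.43, 0.071) or wild-type library 2 (-0.47, 0.062). In the NTL6 line against pnet2_ab 2 rose and 1 fell (median 0.03). There C4H fell by 0.33 ± 0.08 (adjusted p = 0.0038), lost without NTL6 library 1 (-0.26, 0.094). PAL3 rose by 0.50 ± 0.14 (0.018), lost without NTL6 library 1 (0.38, 0.2) or pnet2_ab library 2 (0.40, 0.14), and PAL2 by 0.26 ± 0.09 (0.044), which held in 8 of 15 alternatives (adjusted p up to 0.26) and was lost with the replicate block and without either library of NTL6, pnet2_ab or wild type. In the NTL9 line 2 rose and none fell (median -0.05): PAL2 had 103 and 108 CPM, against 73.6 and 79.3 CPM in pnet2_ab (0.47 ± 0.09, adjusted p = 0.00037), and 4CL3, a coumarate CoA ligase gene tied to flavonoids, had 17.0 and 15.4 CPM, against 9.56 and 10.4 CPM in pnet2_ab (0.70 ± 0.16, 0.0022). In the NTL12 line C4H alone changed and fell by 0.27 ± 0.08 (adjusted p = 0.04), which held in 9 of 15 alternatives (adjusted p up to 0.23). It was lost with the replicate block, with the 2 groups alone and without any 1 of the 4 libraries, and the list median was -0.23.

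Of 14 genes for chalcone folding and for decoration of flavonols and anthocyanins, 12 were tested; 2 rose and 7 fell in pnet2_ab against wild type (median -0.44), 7 rose and 1 fell in NTL6-SRDX against pnet2_ab (median 0.60), 4 rose and 1 fell in NTL9-SRDX (median 0.61), and 1 rose and 2 fell in NTL12-SRDX (median -0.17). UGT78D1, the flavonol rhamnosyltransferase, had 76.1 and 72.1 CPM in NTL6-SRDX, 72.8 and 57.7 CPM in NTL9-SRDX, 52.4 and 50.9 CPM in NTL12-SRDX, 31.1 and 37.7 CPM in pnet2_ab alone, and 52.7 and 50.2 CPM in wild type. Its pnet2_ab libraries were the lowest. It fell by 0.58 ± 0.11 in pnet2_ab against wild type (edgeR adjusted p = 0.00025) and was higher than in pnet2_ab by 1.11 ± 0.11 in NTL6 (2.1e-07), 0.93 ± 0.11 in NTL9 (1.9e-06) and 0.59 ± 0.11 in NTL12 (0.0016). CHIL, a chalcone isomerase-like helper of CHS, had 18.5 and 16.6 CPM in NTL6-SRDX, 14.3 and 13.3 CPM in NTL9-SRDX, 5.50 and 7.21 CPM in NTL12-SRDX, 6.91 and 9.05 CPM in pnet2_ab alone, and 11.1 and 11.2 CPM in wild type. It was higher than in pnet2_ab by 1.14 ± 0.18 in NTL6 (adjusted p = 6.4e-05) and by 0.79 ± 0.18 in NTL9 (0.002), and stood at -0.33 in NTL12 (0.35). In pnet2_ab against wild type it stood at -0.49 (0.039), lost with the 2 groups alone (0.062) and without pnet2_ab library 1 (-0.30, 0.32), wild-type library 1 (-0.51, 0.094) or wild-type library 2 (-0.49, 0.11).

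UGT78D2, which glucosylates both flavonols and anthocyanidins, was highest in wild type: it had 11.3 and 10.9 CPM in NTL6-SRDX, 10.9 and 10.9 CPM in NTL9-SRDX, 9.06 and 7.54 CPM in NTL12-SRDX, 9.13 and 9.62 CPM in pnet2_ab alone, and 16.3 and 15.7 CPM in wild type. It fell by 0.77 ± 0.16 in pnet2_ab against wild type (edgeR adjusted p = 0.00062) and did not pass the threshold in any line against pnet2_ab (adjusted p of 0.33, 0.39 and 0.62 in NTL6, NTL9 and NTL12). UGT75C1, the anthocyanin glucosyltransferase acting after it, had 8.01 and 7.98 CPM in NTL6-SRDX against 4.44 and 4.16 CPM in pnet2_ab (0.89 ± 0.23, adjusted p = 0.0077, lost without pnet2_ab library 2 at 0.85 and 0.052). In pnet2_ab against wild type it stood at -0.64 (0.036), lost with the 2 groups alone (0.067) and without pnet2_ab library 1 (-0.69, 0.088), pnet2_ab library 2 (-0.60, 0.13) or wild-type library 1 (-0.46, 0.24). Against pnet2_ab it stood at 0.42 in NTL9 (0.22) and at -0.09 in NTL12 (0.89). It shares 230 bases with an opposite-strand gene, AT4G14100. SAT, the sinapoyl transferase of anthocyanins, had 33.7 and 27.9 CPM in NTL9-SRDX against 12.3 and 17.3 CPM in pnet2_ab (1.06 ± 0.16, adjusted p = 2.9e-05). SAT was also higher in NTL6 than in pnet2_ab (0.86 ± 0.16, 0.00043) and stood at -0.06 in NTL12 (0.89). It was lower in pnet2_ab than in wild type (-0.61 ± 0.16, 0.005). OMT1, a methyltransferase for flavonols and lignin precursors, was lower in NTL6, at 95.2 and 100.1 CPM against 139 and 129.9 CPM in pnet2_ab (-0.46 ± 0.08, 0.00018). It was also lower in pnet2_ab than in wild type (-0.36 ± 0.08, 0.00094) and in NTL12 than in pnet2_ab (-0.37 ± 0.08, 0.0044), the last lost without NTL12 library 1 (-0.37, 0.056) or pnet2_ab library 1 (-0.32, 0.052). BGLU10, a glucosyltransferase of the glycoside hydrolase family that acts on anthocyanins, rose by 0.58 ± 0.13 in pnet2_ab against wild type (0.0011). Against pnet2_ab it fell by 0.36 ± 0.13 in NTL9 (0.045) and stood at -0.03 in NTL6 (0.9). It had 21.1 and 20.9 CPM in NTL12-SRDX against 28.4 and 33.3 CPM in pnet2_ab. This was a fall by 0.55 ± 0.13 (0.009), lost without NTL12 library 1 (-0.56, 0.078), NTL12 library 2 (-0.54, 0.08) or pnet2_ab library 2 (-0.44, 0.1).

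Of the 5 flavonol synthase paralogs beside FLS1, 3 were tested, and FLS5 and FLS2 had their highest mean level in pnet2_ab. FLS5 had 0.198 and 0.192 CPM in NTL6-SRDX, 0 and 1.52 CPM in NTL9-SRDX, 0.227 and 0.246 CPM in NTL12-SRDX, 4.24 and 4.32 CPM in pnet2_ab alone, and 0.200 and 0.0446 CPM in wild type. It rose by 5.11 ± 1.03 in pnet2_ab against wild type (edgeR adjusted p = 0.00046), a size that rests on 4 and 1 counts in wild type and was 6.42 or 4.37 without wild-type library 1 or 2. The list had 1 gene higher in pnet2_ab than in wild type (median 1.16); against pnet2_ab it had 2 lower in NTL6 (median -2.53), 1 in NTL9 (median -1.10) and 1 in NTL12 (median -0.61). In NTL6, FLS5 fell by 4.42 ± 0.94 (0.0018) and FLS2 fell by 2.53 ± 0.60 (0.0044), the FLS2 call being lost without NTL6 library 1 (-2.25, 0.058) or pnet2_ab library 1 (-1.79, 0.12). The FLS5 call in NTL9, at -2.48 ± 0.80 (0.029), was lost with DESeq2 (0.27) and without NTL9 library 1 (-1.48, 0.15), pnet2_ab library 1 (0.1) or pnet2_ab library 2 (0.094), and stood at -9.73 without NTL9 library 2, where the remaining library is at 0. In NTL12, FLS5 at -4.15 ± 0.91 (0.0065) lost the call with DESeq2 (0.084) and without NTL12 library 1 (0.1) or 2 (0.086). FLS3 passed the threshold in none of these 4 comparisons (adjusted p of 0.55 to 0.95). Reads of such close paralogs may be exchanged between them, since their handling is not given in the sources used here.

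Of 14 activators, 9 were tested; 2 rose in NTL6-SRDX against pnet2_ab, where 8.75% of all tested genes were higher, and none was called in the other main comparisons (medians -0.11 in pnet2_ab against wild type, and 0.25, 0.19 and -0.14 in NTL6, NTL9 and NTL12 against pnet2_ab). PAP2 and MYB12 stayed at 0 to 0.0815 CPM and 0 to 0.424 CPM and were not tested. MYB111, an activator of the early genes, had 4.40 and 4.41 CPM in NTL6-SRDX, 3.78 and 3.99 CPM in NTL9-SRDX, 2.69 and 2.83 CPM in NTL12-SRDX, 2.71 and 1.87 CPM in pnet2_ab alone, and 2.20 and 2.05 CPM in wild type. In NTL6 it rose by 0.93 ± 0.31 against pnet2_ab (edgeR adjusted p = 0.04), lost with the 2 groups alone (0.066) and without NTL6 library 1 (0.94, 0.13), NTL6 library 2 (0.93, 0.14) or pnet2_ab library 2 (0.70, 0.25). MYB111 stood at 0.75 in NTL9 (0.092) and 0.26 in NTL12 (0.72) against pnet2_ab, and at 0.12 in pnet2_ab against wild type (0.82). EGL3, a bHLH partner of PAP1, had 5.59 and 6.71 CPM in NTL6-SRDX against 2.48 and 4.36 CPM in pnet2_ab alone, and its call (0.86 ± 0.30, 0.049) held in 4 of 15 alternatives. It was lost with DESeq2, RLE or the 2 groups alone and without 8 of the 10 libraries, all but pnet2_ab library 2 and wild-type library 2 (0.50 without pnet2_ab library 1, adjusted p = 0.39) and stood at 1.31 without pnet2_ab library 2 (0.016). TT8, another bHLH of the complex, had at most 1.19 CPM, and TTG1, its WD40 protein, had 37.9 to 48.5 CPM over all 10 libraries. Neither passed the threshold in the 4 main comparisons (adjusted p of 0.5 to 0.77 for TT8 and of 0.41 to 0.95 for TTG1). GL3, also a bHLH of the complex, had a mean of 1.34 CPM in NTL12 and 0.571 CPM in pnet2_ab. This difference of 1.21 did not pass the threshold (edgeR adjusted p = 0.36).

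Among genes that hold the pathway back, more rose than fell in pnet2_ab against wild type, and those called in the NTL6 and NTL9 lines against pnet2_ab were all lower. Of 16 repressors, 15 were tested: 8 rose and 2 fell in pnet2_ab against wild type (median 0.32), none rose and 9 fell in NTL6-SRDX against pnet2_ab (median -0.66), none rose and 9 fell in NTL9-SRDX (median -0.53), and 2 rose and none fell in NTL12-SRDX (median 0.07). MYBL2, a small MYB that displaces activators from the complex, had 83.6 and 80.7 CPM in NTL6-SRDX, 125 and 143 CPM in NTL9-SRDX, 198 and 201 CPM in NTL12-SRDX, 177 and 159.9 CPM in pnet2_ab alone, and 136 and 117 CPM in wild type. The NTL6 libraries were lowest and the NTL12 libraries highest. It rose by 0.42 ± 0.09 in pnet2_ab against wild type (edgeR adjusted p = 0.00054), fell by 1.03 ± 0.09 in NTL6 against pnet2_ab (2e-08) and fell by 0.33 ± 0.08 in NTL9 (0.0065), the last lost without NTL9 library 1 (-0.22, 0.13) or pnet2_ab library 1 (-0.25, 0.086). In NTL12 it stood at 0.25 (0.085) and passed the threshold without the filter (0.033) and with the 2 groups alone (0.049).

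Kelch repeat F-box proteins mark enzymes for breakdown: KFB01, KFB20, KFB39 and KFB50 act on phenylalanine ammonia lyase, and KFBCHS acts on chalcone synthase. KFB20 had 30.3 and 28.7 CPM in NTL6-SRDX, 39.9 and 54.7 CPM in NTL9-SRDX, 166 and 155 CPM in NTL12-SRDX, 119 and 99.9 CPM in pnet2_ab alone, and 58.4 and 58.3 CPM in wild type. No 2 groups overlapped. It rose by 0.91 ± 0.11 in pnet2_ab against wild type (edgeR adjusted p = 1.2e-06) and, against pnet2_ab, fell by 1.90 ± 0.12 in NTL6 (1.6e-10), fell by 1.21 ± 0.11 in NTL9 (7e-08) and rose by 0.55 ± 0.11 in NTL12 (0.0025), lost without NTL12 library 1 (0.50, 0.056). KFBCHS had 85.7 and 86.5 CPM in NTL6-SRDX, 135 and 160.3 CPM in NTL9-SRDX, 270.3 and 254 CPM in NTL12-SRDX, 226 and 201 CPM in pnet2_ab alone, and 237 and 221 CPM in wild type. Against pnet2_ab it fell by 1.31 ± 0.08 in NTL6 (3.7e-10) and by 0.53 ± 0.08 in NTL9 (5.5e-05). It rose by 0.30 ± 0.08 in NTL12 (0.031), a call lost without NTL12 library 1 (0.25), NTL12 library 2 (0.34) or pnet2_ab library 2 (0.22). KFB01 rose by 1.85 ± 0.22 in pnet2_ab against wild type (8e-07), with 13.5 and 17.0 CPM against 4.05 and 4.41 CPM. Against pnet2_ab, KFB01 fell by 1.15 ± 0.21 in NTL6 (0.00038) and by 1.23 ± 0.21 in NTL9 (0.00014). In NTL12 it stood at -0.48 (0.17). KFB39, which lies wholly within AT2G44140 on the opposite strand, was at 0 counts in every library and was not tested. LBD38, a nitrogen-responsive repressor of anthocyanin genes, rose by 0.69 ± 0.13 in pnet2_ab against wild type (0.00029). Against pnet2_ab it fell by 0.93 ± 0.13 in NTL6 (3.1e-05) and by 1.08 ± 0.13 in NTL9 (3.5e-06). Its relative LBD37 fell by 0.53 ± 0.08 in NTL6 (8.5e-05) and by 0.74 ± 0.08 in NTL9 (9e-07). MYB3, a repressor of phenylpropanoid genes, rose by 0.41 ± 0.14 in pnet2_ab against wild type (0.027). Against pnet2_ab it fell by 0.57 ± 0.14 in NTL6 (0.0055) and stood at -0.24 in NTL9 (0.24) and at 0.40 in NTL12 (0.079).

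**Figure D5:**
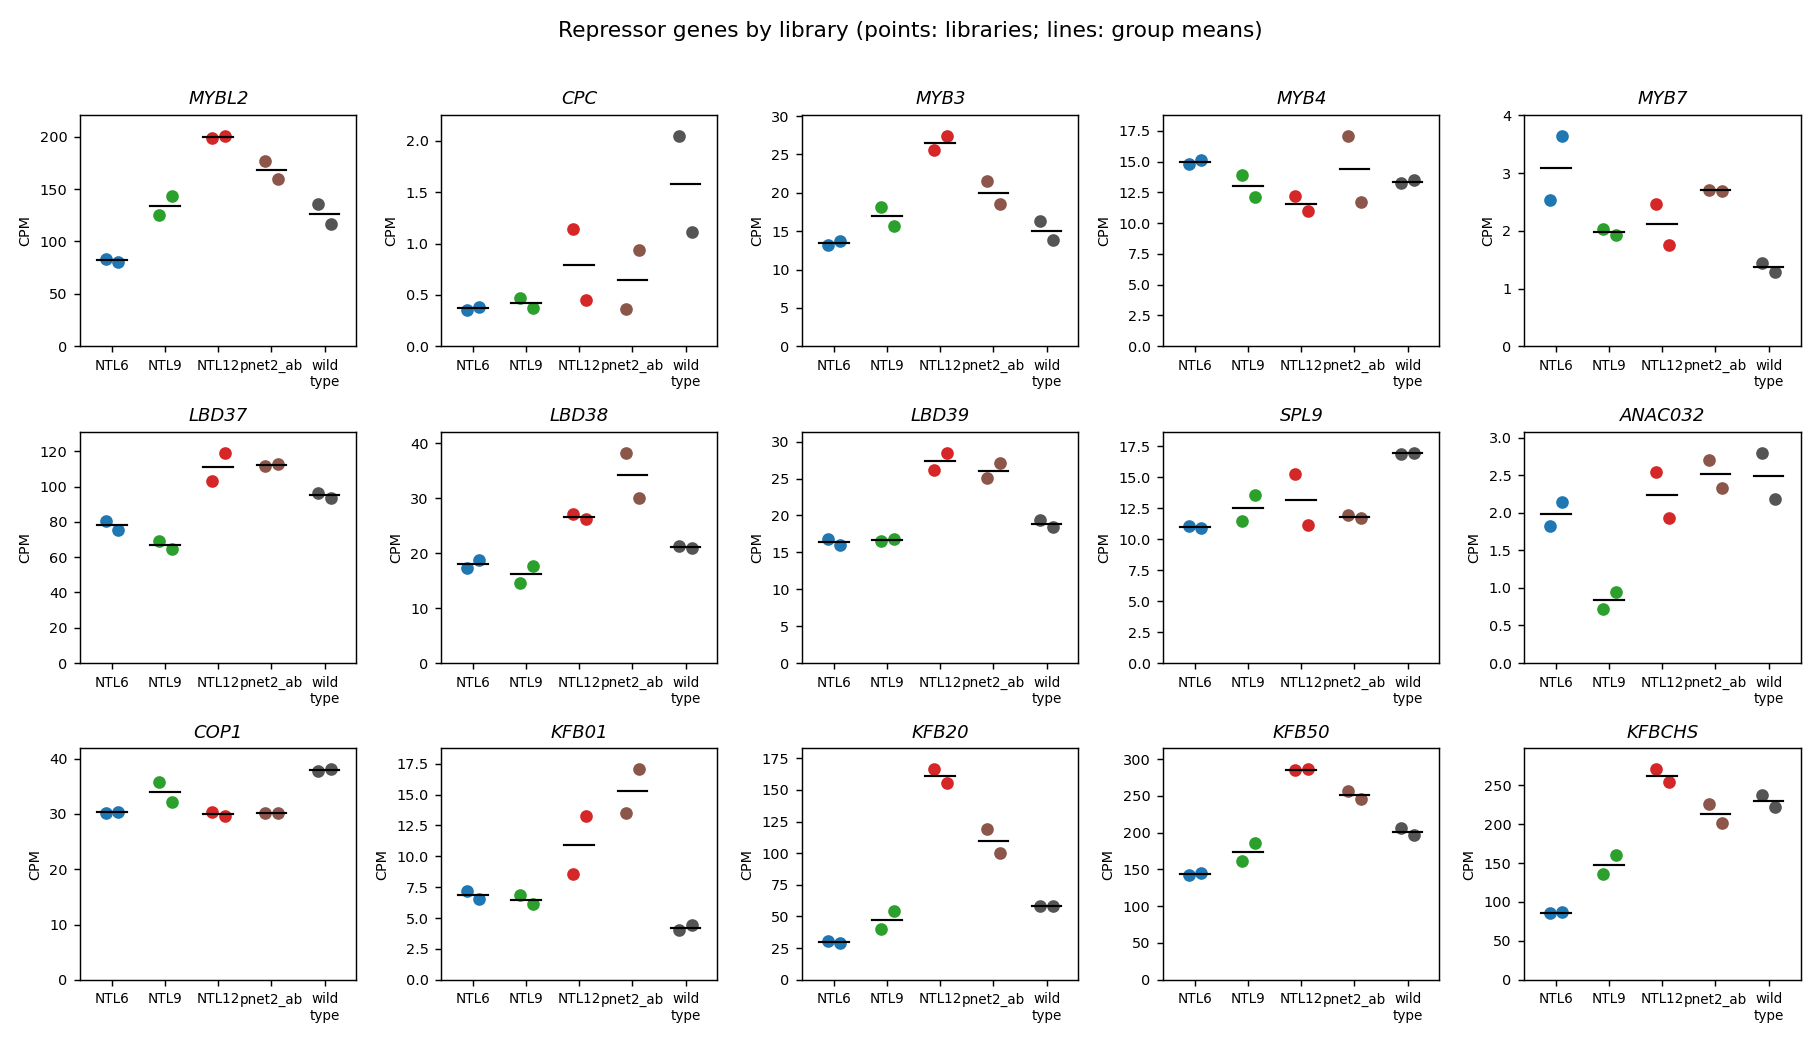
Levels of the 15 tested repressors in CPM with TMM scaling (y axis from 0, one panel per gene) in the 3 lines in pnet2_ab, in pnet2_ab and in wild type; points are libraries and lines means of 2. MYBL2 and KFB20 are lowest in NTL6-SRDX, at 80.7 and 83.6 CPM and at 28.7 and 30.3 CPM, and highest in NTL12-SRDX, at 198 and 201 CPM and at 155 and 166 CPM.

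In the comparisons with wild type the repressor list had 2 genes higher and 7 lower in NTL6-SRDX (median -0.32), none higher and 3 lower in NTL9-SRDX (median -0.22), and 7 higher and 1 lower in NTL12-SRDX (median 0.33). The shares of all tested genes higher and lower than in wild type were 10.9% and 12.6% in NTL6-SRDX. They were 6.29% and 7.43% in NTL9-SRDX, and 14.9% and 15.6% in NTL12-SRDX. Against the NTL12 line, 9 of the 15 were lower in NTL6 (median -0.67) and 10 in NTL9 (median -0.72), with none higher. The decoration list had 7 of 12 genes higher and none lower in both of these comparisons (medians 0.55 and 0.49). Of all tested genes, 8.99% were higher and 8.45% lower in NTL6 than in NTL12. The shares were 9.22% and 7.07% in NTL9 against NTL12. Between NTL6 and NTL9 4 repressors were lower and none higher in NTL6 (median -0.17), and 1 decoration gene was lower. There 1.95% of all tested genes were higher and 4.1% lower in NTL6.

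Mesophyll and some other cell type markers differed between genotypes, and their part in the results above was not tested. Beside the marker counts below, 17.2% of all tested genes were higher and 16.8% lower in pnet2_ab than in wild type. The guard cell, vasculature, floral organ and root lists are short, and their counts in that comparison lie near these shares. Against pnet2_ab, 4 of 5 mesophyll, 4 of 6 epidermis and 3 of 3 guard cell markers were higher in both NTL6 and NTL9. In NTL12 the numbers were 3, 2 and 1, and none of these markers was lower in any line. The vasculature, root and floral organ lists had none higher and 0 to 2 lower. Of all tested genes, 8.75% were higher and 9.35% lower in NTL6, 11.6% and 10.8% in NTL9, and 3.11% and 3.84% in NTL12. In bulk leaf RNA, fewer cells of a type and less RNA per cell cannot be told apart. All 5 mesophyll markers fell in pnet2_ab against wild type, and their sum was 48088 to 49659 CPM in NTL6-SRDX, 52361 to 60852 CPM in NTL9-SRDX, 48658 to 50588 CPM in NTL12-SRDX, 42523 to 43552 CPM in pnet2_ab alone, and 70116 to 75464 CPM in wild type. Of 6 epidermis markers 4 fell in pnet2_ab, with sums of 848 to 869 CPM in NTL6, 834 to 884 CPM in NTL9, 758 to 820.2 CPM in NTL12, 657 to 689 CPM in pnet2_ab and 767 to 788 CPM in wild type. Guard cell markers (1 of 3 lower in pnet2_ab than in wild type) summed to 41.3 to 42.2 CPM in pnet2_ab and 51.6 to 66.6 CPM in the other groups, and vasculature markers (1 of 3 lower) to 234 to 314 CPM over all libraries. Floral organ markers (2 of 7 higher) summed to 5.45 to 5.87 CPM in NTL6, 5.09 to 6.49 CPM in NTL9, 7.95 to 7.96 CPM in NTL12, 9.98 to 15.4 CPM in pnet2_ab and 2.65 to 2.81 CPM in wild type, and AP1 was at 0 in NTL9, NTL12 and wild type. SEP3 had the highest mean of this list in each group, at 6.91 CPM in pnet2_ab and 0.931 CPM in wild type. It was higher than in wild type by 2.90 in pnet2_ab (edgeR adjusted p = 2.4e-07). In the lines it was higher than in wild type by 1.94 in NTL6 (0.00012), 2.23 in NTL9 (6.1e-05) and 2.83 in NTL12 (4.9e-07). Of 3 root markers 1 rose and 1 fell in pnet2_ab against wild type, and their sum was 49.6 to 170.4 CPM over all libraries, most of it PYK10. The seed coat list, which draws on the same pathway for proanthocyanidins, stayed at 1.60 to 2.84 CPM in sum, with TT10 at 0 in every library and TT1, TT2 and TT12 at 0 in 9 of 10.

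Among 18098 tested genes outside the 10 with a mean of at least 1 CPM, those whose log2 CPM over the 10 libraries was most like the mean standardised pattern of DFR, LDOX, UF3GT and TT19 were ASP1 (AT2G30970), AT4G38100, NOF1 (AT1G17690), AR192 (AT4G26780) and AT4G34950, with Pearson r of 0.967, 0.966, 0.965, 0.965 and 0.962. ASP1, an aspartate aminotransferase gene, had 93.1 and 94.9 CPM in NTL6-SRDX, 81.5 and 82.1 CPM in NTL9-SRDX, 66.5 and 66.6 CPM in NTL12-SRDX, 70.2 and 71.6 CPM in pnet2_ab alone, and 85.6 and 92.0 CPM in wild type, a narrower range than that of the late genes. The late genes themselves had r of 0.939 to 0.962 with their own mean. For the mean of CHS, CHI and F3'H, the most alike were AT1G75200, AT3G57730, AT1G55210, AT5G45720 and XPB2 (AT5G41360), with r between 0.917 and 0.959. CHS, CHI and F3'H had r of 0.842, 0.631 and 0.717 with this mean. Each gene is part of the mean it is set against, which raises r in both sets. F3'H had only 22 to 90 counts a library and 1 pnet2_ab library of CHI stood apart. The lower r of these genes therefore need not mean less of a shared pattern. These are correlations over 10 libraries that share 5 genotypes, chosen as the highest of many, and they describe likeness only.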

How the data were processed

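Messenger RNA of leaves was sequenced in 10 libraries, 2 for each of 5 genotypes, and libraries were grouped by title. The authors deposited whole-number counts per gene and library together with FPKM values of the same genes, made with HISAT2 2.0.4, HTSeq 0.6.1p1 and TAIR10 per the submitters' processing notes. How strand, overlapping genes and paralogs were handled in counting is not given in the sources used here. Counts were fitted in R 4.3.3 with edgeR 4.0.16 (limma 3.58.1): filterByExpr by group, TMM scaling with factors of 0.884 to 1.082, 1 coefficient per group over all 10 libraries, a quasi-likelihood F-test and Benjamini-Hochberg adjustment over 20334 genes at 0.05. Dispersion gave a biological coefficient of variation of 0.108. Alternatives were RLE scaling, no filter, a replicate block, the 2 groups alone, DESeq2 1.42.0 and each library left out, 15 in all. FPKM served only for levels between genes and for ratios. The code was tested on simulated data. Gene coordinates are those of the authors' table; promoter sequences come from the RefSeq genome TAIR10.1, whose annotation placed all 27998 genes found in both tables on the same chromosome and strand.

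The members and the lists of other genes were chosen with earlier results of these data known. All members are named, and of each other pathway list the 3 genes with the lowest adjusted p in a main comparison and the fixed genes UGT78D2, UGT75C1, MYB12, MYB111, PAP2, TT8, TTG1, MYBL2 and CHIL could be named; likeness gives the 5 genes with the highest correlation. Replicate pairs differed by more than sampling noise (6.11 to 9.74 as chi-square over its degrees of freedom). The labels do not say whether libraries with the same replicate number belong together across genotypes, and the main fit did not pair them.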

Additional observations from a re-analysis of the deposited data

How the results depend on the processing

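Of 168 fold changes of pathway genes, 81 were called, 49 of them under all 15 alternatives, and 32 lost the call under at least 1. The 168 join the tested members in all 10 comparisons with other genes that the naming rule picked in each main comparison. Many of those were picked for the lowest adjusted p in their list, so 81 of 168 is not a call rate of the pathway. Fold changes of other genes where the rule did not pick them are outside the 168, and no alternatives are given for them. No called value changed sign, whereas 36 values that were not called did so under a left-out library. The count of members called changed with the setting in 6 of 10 comparisons. For NTL12-SRDX against pnet2_ab it was 2, and 4 without the filter. For NTL6-SRDX against NTL9-SRDX it was 1, and 3 without the filter or with the 2 groups alone. For NTL9-SRDX against wild type it was 2, and 1 with a replicate block, with the 2 groups alone or under DESeq2. For pnet2_ab against wild type it was 4, with 6 without the filter and 5 under DESeq2. For NTL6-SRDX against wild type it was 4, and 3 without the filter, with a replicate block, with the 2 groups alone or under DESeq2. For NTL9-SRDX against NTL12-SRDX it was 6, and 5 with the 2 groups alone. Deviations of same-numbered libraries of different genotypes had correlations of -0.038 to 0.032 over 10 pairs of groups. The labels name no batch, and whether replicate numbers share one is not known. The replicate block cost 4 of the 168 results their call and gave none. With 1 library left out at a time, the count ran from 1 to 3 for NTL12-SRDX against pnet2_ab, from 0 to 3 for NTL6-SRDX against NTL9-SRDX, from 1 to 2 for NTL9-SRDX against wild type, from 2 to 5 for NTL9-SRDX against pnet2_ab, from 2 to 4 for NTL6-SRDX against wild type and from 2 to 5 for pnet2_ab against wild type. No range is given for the remaining comparisons, though calls were lost in them too when 1 library was left out. UF3GT lost its call in this way in NTL6-SRDX against pnet2_ab, NTL12-SRDX against wild type and NTL9-SRDX against NTL12-SRDX. FLS1 and PAP1 lost theirs in NTL6-SRDX against NTL12-SRDX. A group left with 1 library is assumed to vary like the other groups. The cause of these changes was not tested. UF3GT had as few as 7 counts in a library and F3'H as few as 22; whether depth limits their calls was not tested.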
